A study of Sus scrofa with 6 samples.

Results

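The genes described here control the conversion of plasminogen to plasmin and the start of clotting in porcine aortic valve leaflets. Of 7 listed genes, the array annotation gave 1 probe set each (the unit in which the array reports a transcript) to 6, namely SERPINB2, SERPINE2, PLAU, PLAT, F3 and THBD, which are 6 of the 23999 probe sets tested. No probe set is named here for PLAUR, the receptor of urokinase, so it was dropped. The list of called probe sets that the study published also names SERPINB2, at the same probe set, and adds no other. The leaflets came from pigs of mixed breed that were 5 months old and weighed about 90 kg. All males had been castrated, and all leaflets, male and female, had their endothelium scraped off with a scalpel before RNA isolation. The study checked the scraping by staining a parallel set of leaflets for von Willebrand factor, an endothelial marker, and reports it as successful. Each of 3 female and 3 male pigs gave 1 Affymetrix Porcine Genome Array, and the deposited values are log2 expression values. With 3 arrays per sex, precision is limited throughout, and p-values measure the spread between these pigs. Castration applied to every male, so sex and castration cannot be told apart.

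Plasmin is a protease that dissolves fibrin and degrades other matrix proteins, and cells form it from plasminogen with the urokinase-type activator (PLAU) or the tissue-type activator (PLAT). Serpins such as SERPINB2, also called PAI-2, and SERPINE2, also called protease nexin 1, trap these activators. Clotting starts from tissue factor (F3), while thrombomodulin (THBD) turns thrombin into an activator of the anticoagulant protein C. In vessels, PLAT and THBD are known as products of the endothelium, and tissue factor as a product of the cells beneath it. Since each gene has a single probe set and probe sets differ in how strongly they bind, the level of one gene is not set against that of another.

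The inhibitor SERPINB2 had the largest difference between the sexes among the 6 genes, and it was higher in male leaflets. Its log2 expression value was 10.95, 9.99 and 9.71 in males 1, 2 and 3, and 7.12, 8.77 and 3.94 in females 1, 2 and 3. Every male lay above every female, with a gap of 0.94 between the lowest male and the highest female. Females spread over 4.83 on the log2 scale and males over 1.23, and female 3 lay under 5.52, the 25th percentile of all values, where a probe set is close to the background of the array. The level of SERPINB2 in female 3 is therefore poorly resolved.

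Of the 6 genes, 5 had a higher mean in males, as 49.1% of all probe sets did. Of the 6765 annotated genes, at 1 probe set per gene, 58.3% did. The median of the log2 differences of the 6 genes was 0.18, against -0.01 over all probe sets and 0.05 over the annotated genes. The mean of SERPINB2 was 10.21 ± 0.65 (SD, n = 3) in males against 6.61 ± 2.45 in females, which gives a log2 difference (log2 of the fold change, male over female) of 3.60 (95% confidence interval 1.01 to 6.19 in the fit over all probe sets). This is a 12.2-fold difference, with an interval from 2.02-fold to 73.2-fold. The methods of the study name a filter on the coefficient of variation (CV) ahead of limma, worded as removing values too dissimilar among replicates, without the share kept. Here the CV was the SD divided by the mean over the 6 log2 values, and the 10% of highest CV were kept, a choice of the present processing that is called the CV filter. SERPINB2 ranked 19 of 24123 by CV, so a filter that removed the most variable probe sets would remove it. The study's list of called probe sets names SERPINB2, so the filter of the study kept it. With the CV filter SERPINB2 rose in males (adjusted p = 0.0435 from limma, with at least 2-fold required). It was the 1 gene called among the 3 of 6 that the filter kept, while 7.59% of all filtered probe sets were called in either direction and 4.60% higher in males. A CV over all arrays is itself larger where the sexes differ. Over all 23999 probe sets, limma called none of the 6 genes, where 0.304% of all probe sets were called in either direction and 0.167% higher in males. SERPINB2 had an adjusted p of 0.193 in that test from limma, and it was the 1 gene of the 6 with an unadjusted p under 0.05, as 16.9% of all probe sets had. The exact permutation test of its values (two-sided) gave p = 0.1, the smallest that 3 against 3 arrays allow, and 11.1% of all probe sets also had every male above every female.

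The call of SERPINB2 depended on single arrays and on the filter. With the CV filter it was not called without male 1 (adjusted p = 0.0916 from limma) or female 1 (0.0534), nor when the filter kept 20% (0.0510) or 50% (0.0723) of the probe sets. The difference itself was 9.43-fold without male 1 and 14.5-fold without female 1, against 12.2-fold with all arrays, and it was 25.7-fold without female 2 and 4.82-fold without female 3. The adjusted p from limma was lower with the CV taken on unlogged values (0.00102) and without dim probe sets (0.00737).

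**Figure D1:**
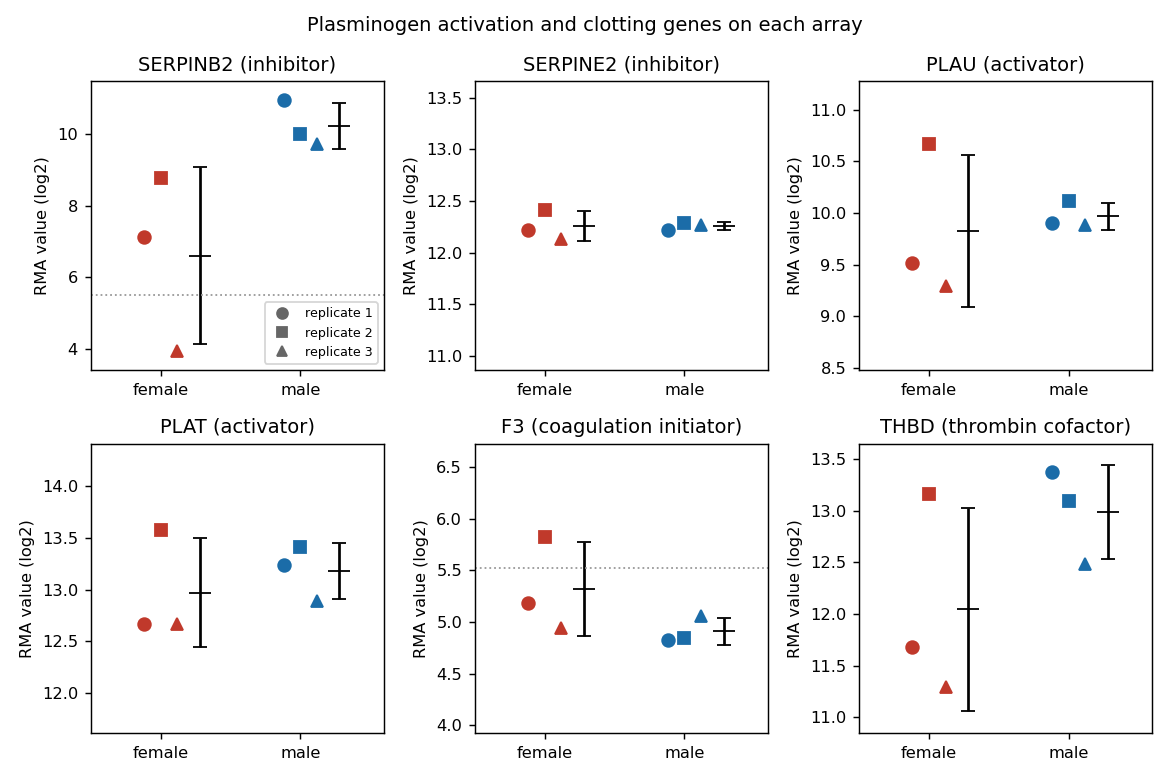
RMA value (log2, vertical axes with their own range) of the 6 genes on each female (red) and male (blue) array, with the replicate number as symbol and a black bar for the mean ± SD per sex; the dotted line is the 25th percentile of all values (5.52). Only SERPINB2 separates the sexes, and female 2 is the highest female for each gene.

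SERPINE2, the inhibitor that acts on thrombin as well as on plasminogen activators, had nearly the same value in all leaflets. It was at 12.22, 12.29 and 12.26 in males 1 to 3 and at 12.22, 12.41 and 12.13 in females 1 to 3. The females enclosed the males, with a mean of 12.26 ± 0.04 (SD, n = 3) in males and of 12.25 ± 0.15 in females. Its interval for the difference between males and females ran from -0.25 to 0.26 on the log2 scale, or from 0.839-fold to 1.20-fold, so it excluded a 2-fold difference in either direction. The SD over the 6 arrays was 0.10, larger than that of 11.6% of all probe sets. The inhibitors therefore stood at opposite ends of this group, with SERPINB2 at an SD of 2.54, larger than that of 99.9% of all probe sets.

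SERPINB7, also called megsin, is a serpin that lies near SERPINB2 in the pig genome, with 1 other protein-coding gene between them in the RefSeq annotation of Sscrofa11.1. Its values stood in the same order over the 6 arrays as those of SERPINB2, an order also seen for other genes, such as the endothelial marker ESAM. SERPINB7 was not among the 3 genes closest to SERPINB2 by the measure used below, which counts the size of differences as well as their order. That measure includes female 3, where the level of SERPINB2 is poorly resolved. It was at 9.38, 8.61 and 7.97 in males 1 to 3 and at 5.82, 7.79 and 5.51 in females 1 to 3, with female 2 again the highest female and just under the lowest male. SERPINB7 rose with the CV filter by 2.28 on the log2 scale (interval 0.82 to 3.74 in the fit over all probe sets), where limma gave an adjusted p of 0.0421, but it did not pass over all probe sets (adjusted p = 0.169 from limma). SERPINB11, the next gene beyond SERPINB7, lay under the 25th percentile on all arrays, from 3.09 to 3.67, and its log2 difference of 0.37 did not pass (adjusted p = 0.224 from limma over all probe sets). It was named for its position and not by the rule for named genes.

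Neither plasminogen activator passed a test between male and female leaflets. PLAU, the urokinase that acts mainly at the cell surface, was at 9.90, 10.12 and 9.88 in males 1 to 3 and at 9.52, 10.66 and 9.29 in females 1 to 3. The males lay between the other females and female 2, the highest of the 6 arrays. The log2 difference of PLAU was 0.14 (interval -0.65 to 0.93, adjusted p = 0.871 from limma over all probe sets). PLAT, the activator that works best when bound to fibrin, was at 13.24, 13.42 and 12.89 in males 1 to 3 and at 12.67, 13.58 and 12.66 in females 1 to 3. Here too female 2 lay above every male and the other females below every male. The log2 difference of PLAT was 0.21 (interval -0.43 to 0.85, adjusted p = 0.744 from limma over all probe sets). A 2-fold difference lay outside both intervals, although the tests were not passed and smaller differences in either direction remain inside them. The direction of PLAU depended on single arrays, at -0.13 without female 3, -0.01 without female 1 and 0.56 without female 2. The log2 difference of PLAT was 0.06 without female 1 or female 3 and 0.51 without female 2, and neither gene passed the test without any of these arrays (adjusted p from 0.165 to 0.993 from limma over all probe sets).

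Tissue factor was near the background. F3 was at 4.83, 4.84 and 5.05 in males 1 to 3 and at 5.19, 5.82 and 4.94 in females 1 to 3, under the 25th percentile of 5.52 on 5 of the 6 arrays, with female 2 as the exception. It was the only one of the 6 genes with a lower mean in males, with a log2 difference of -0.41 (interval -0.93 to 0.12) that did not pass with the CV filter (adjusted p = 0.428 from limma) or over all probe sets (0.401). Without female 2 the log2 difference of F3 was -0.15.

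THBD, the thrombin receptor that starts the protein C pathway, had the second largest difference. It was at 13.38, 13.09 and 12.49 in males 1 to 3 and at 11.68, 13.16 and 11.29 in females 1 to 3. Females 1 and 3 lay below every male, while female 2 lay above males 2 and 3, so the sexes overlapped. The mean was 12.99 ± 0.45 (SD, n = 3) in males and 12.05 ± 0.99 in females. The log2 difference of 0.94 (interval -0.18 to 2.07) did not pass with the CV filter (adjusted p = 0.196 from limma) or over all probe sets (0.369). Its interval held both no difference and a difference above 2-fold. Without female 2, THBD was called with the CV filter (log2 difference 1.50, adjusted p = 0.0440 from limma), but it did not pass over all probe sets (0.130). Without female 3 its log2 difference was 0.57, and the CV filter did not keep it.

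**Figure D2:**
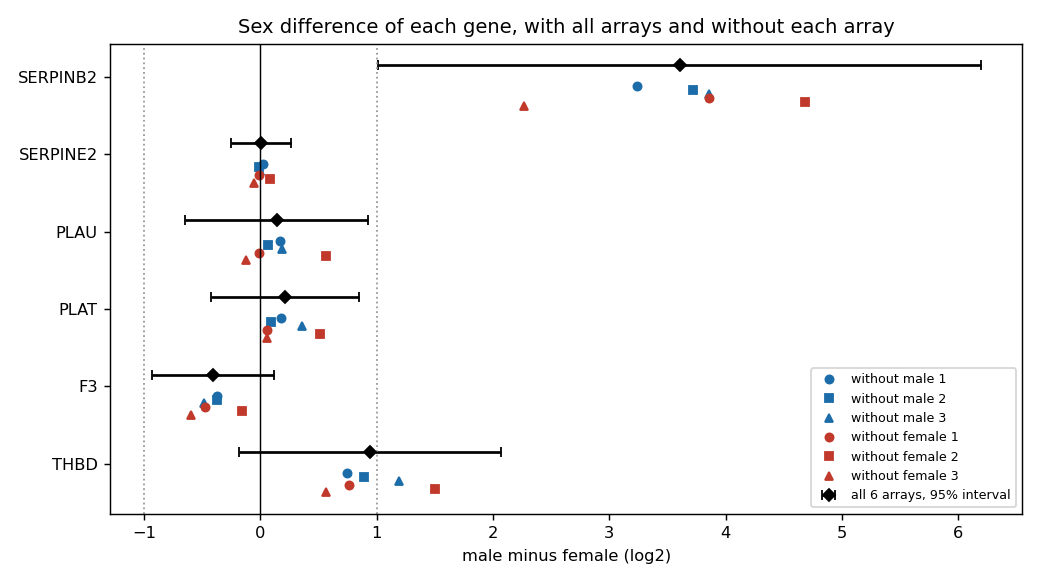
Male minus female (log2) of the 6 genes in the limma fit over all probe sets, with all 6 arrays (black diamonds, bars as 95% confidence intervals) and without each array in turn (blue for males, red for females); dotted lines mark 2-fold. SERPINB2 lies between 2.27 and 4.68 whichever array is left out, and leaving out female 2 (red squares) moves PLAU, PLAT and THBD to 0.56, 0.51 and 1.50, while leaving out female 3 (red triangles) moves them to -0.13, 0.06 and 0.57.

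The females varied more than the males, and in the same order, for all 6 genes. Female 2 was highest and female 3 lowest for each, an order seen in 15.7% of all probe sets, and it was noticed in the values and not tested. The SD of the females exceeded that of the males for 6 of 6 genes, as it did for 57.7% of all probe sets. The ratio of the SDs ran from 1.95 for PLAT to 5.67 for PLAU. Female 2 lay above every male for SERPINE2, PLAU, PLAT and F3, that is for 4 of 6 genes, against 28.1% of all probe sets. Between females 2 and 3 the difference was 3.66-fold for THBD, 2.59-fold for PLAU, 1.89-fold for PLAT and 1.22-fold for SERPINE2. For SERPINB2 and F3, where female 3 lay under the 25th percentile, no fold is given. The 6 genes share these arrays, so they are not independent readings of the order.

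Markers of endothelial cells, which the scraping was meant to remove, also differed between the arrays. The list of 30 markers, which holds none of the 6 genes, had 21 measured, of which 17 were higher and 4 were lower on average in males, with a median difference of 0.89 against 0.05 over all 6765 annotated genes. With the CV filter 4 of them rose at these probe sets, namely ICAM2, ADGRL4, ENTPD1 and ESAM, with log2 differences of 1.70, 1.75, 1.88 and 1.59. Female 2 was the highest female for ADGRL4 and ESAM, and female 1 was for ICAM2 and ENTPD1. A further ESAM probe set went the other way (-0.26), and another at 1.56 was narrowly not called (adjusted p = 0.05004 from limma after the CV filter). None of the markers passed over all probe sets, where 10 had an unadjusted p under 0.05. Of the 6765 annotated genes, at 1 probe set per gene, 58.3% were higher on average in males and 1184 had an unadjusted p under 0.05. With the CV filter 44 of them rose and 13 fell. Summed over the markers on the linear scale, the log2 level was 15.34, 14.97 and 14.26 in males 1 to 3 and 13.87, 14.48 and 13.76 in females 1 to 3. Female 2 was the highest female and lay above male 3, as it did for THBD and PLAT. VWF, which endothelial cells store and secrete, was at 11.33 in female 2, above the other 5 arrays (9.27 to 10.90). Its log2 difference between the sexes of 0.38 did not pass (adjusted p = 0.787 from limma over all probe sets). Further VWF probe sets did not share this pattern. Female 2 was the lowest array at one of them (6.05), and lay under males 1 and 2 at another (6.09, against 6.21 and 6.28). These counts take the annotated probe set with the highest mean for each gene. The study's list of called probe sets names others for KDR, CD93, PODXL and CLEC14A, and these were called higher in males with the CV filter, with log2 differences of 2.37, 1.46, 1.76 and 1.50. For KDR and CD93 they went against the annotated probe sets (-0.19 and -0.52), which are among the 4 lower ones. The annotated probe set of KDR lay under the 25th percentile on every array, whereas the one in the study's list ran from 6.07 to 9.53. Since that list holds called probe sets, it is not independent evidence of direction. The part of endothelial RNA in the values of THBD, PLAT and SERPINB2 was not tested, and in bulk leaflets fewer cells of a type and less RNA per cell cannot be told apart.

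**Figure D3:**
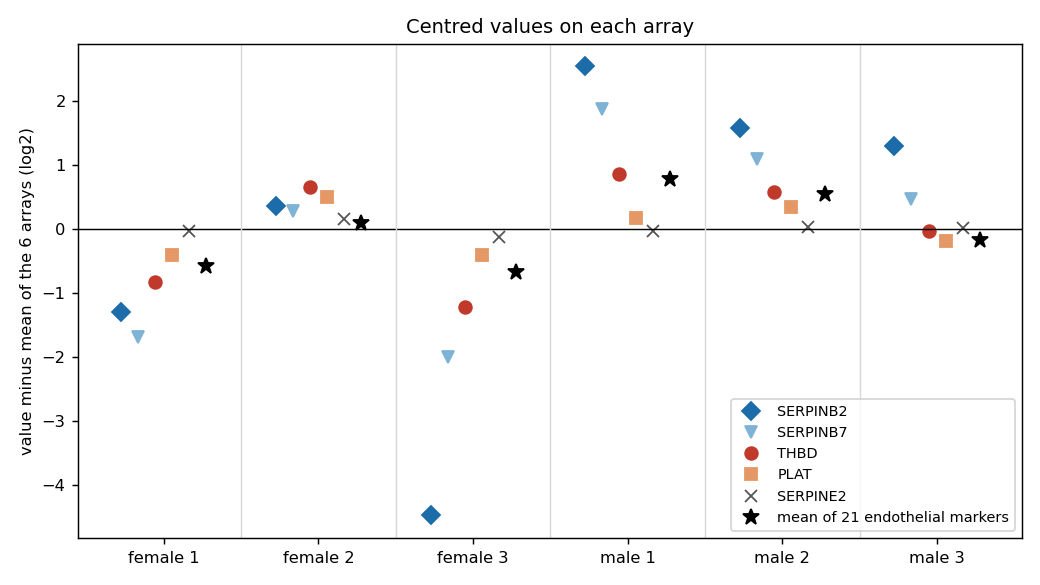
Value minus the mean of the 6 arrays (log2) of SERPINB2, its neighbor SERPINB7, THBD, PLAT and SERPINE2, and of the mean of 21 endothelial markers, on each array. Females 1 and 3 lie low and female 2 lies higher for all but SERPINE2, which stays near 0 on every array.

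The median differences of the other cell type lists were smaller in size than that of the endothelial markers (0.89), although single genes such as RGS5 differed more. The valve interstitial and fibroblast markers identified the tissue, with VIM from 14.30 to 14.44, DCN from 13.91 to 14.52 and none of 13 markers under the 25th percentile on all arrays. Of these, 2 were higher and 11 were lower on average in males (median difference -0.28), against 58.3% higher among all annotated genes. None passed either test, although a DDR2 probe set named in the study's list was called higher in males with the CV filter (log2 difference 1.28). The smallest p values belonged to S100A4, DCN (-0.38) and PDGFRB (-0.34). S100A4 had every male above every female (log2 difference 1.20, adjusted p = 0.0619 from limma after the CV filter). The summed log2 level of the 13 markers was 16.82 to 16.99 in males and 16.99 to 17.18 in females. Monocytes and macrophages are a known source of SERPINB2 in other tissues. Of 19 measured monocyte, macrophage and neutrophil markers, 13 were higher and 6 were lower on average in males, against 58.3% higher among all annotated genes. The median difference of the 19 markers was 0.23, and none of them passed either test. Their summed log2 level was 14.80 to 15.24 in males and 14.50 to 15.16 in females, ranges that overlapped, and S100A8 and S100A12 lay under the 25th percentile on all arrays. LAPTM5, a lysosomal protein of leukocytes, and TYROBP, a signaling adaptor of myeloid cells, had the smallest p values of that list, with log2 differences of 0.68 and 0.42, followed by PTPRC, the pan-leukocyte CD45, with 0.26. A further LAPTM5 probe set had every male above every female (0.86, adjusted p = 0.0757 from limma over all probe sets). A further CD163 probe set had every male below every female (-0.86, adjusted p = 0.177 in the same test). At further probe sets of CD14, FCGR3A, ITGAM and MARCO the sexes overlapped. Among 8 smooth muscle and pericyte markers and 7 platelet and red cell markers, none passed either test at the annotated probe sets. The pericyte marker RGS5 had a log2 difference of 2.56 (adjusted p = 0.0517 from limma after the CV filter) there, and a further RGS5 probe set, named in the study's list, was called with 1.89 (0.0458), and the integrin subunit ITGB3, shared by platelets and endothelium, one of 1.20 (adjusted p = 0.0527 from limma in the same test). The next smallest p values belonged to MYOCD (-0.55) and KCNMB1 (0.15) in the muscle list, and to PPBP (0.41, near the background) and ITGA2B (-0.17) in the platelet list. None of 6 epithelial and mesothelial markers passed either. WT1 (0.41), EPCAM (-0.35) and KRT19 (0.80) had the smallest p values there. For KRT19 male 1 was at 7.18 and the other arrays were at 4.95 to 5.35.

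The other genes of plasminogen activation and fibrinolysis did not move one way. Of 24 listed genes 15 were measured, 6 with a higher and 9 with a lower mean in males (median difference -0.05). Of all annotated genes, 58.3% had a higher one. None of the 15 passed with the CV filter or over all probe sets in limma. Over all probe sets 3 of the 15 had an unadjusted p under 0.05, as did 1184 of all 6765 annotated genes. Those 3 were VLDLR, an endocytic receptor that clears complexes of activator and inhibitor, and ANXA2 and S100A10, which together bind plasminogen and PLAT at the cell surface. ANXA2 was at 13.76, 13.57 and 13.43 in males 1 to 3 and at 13.19, 13.24 and 13.16 in females 1 to 3, with no overlap (log2 difference 0.39, adjusted p = 0.186 from limma over all probe sets). S100A10 was at 14.10, 13.89 and 13.59 in males 1 to 3 and at 13.34, 13.45 and 13.48 in females 1 to 3, also without overlap (log2 difference 0.44, adjusted p = 0.220 from limma). VLDLR had every male below every female, with a log2 difference of -0.87 (adjusted p = 0.181 from limma). PLG, the plasminogen gene itself, which the liver expresses, was near the 25th percentile in all leaflets, at 5.39 to 5.63.

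Among 20 measured of 28 listed coagulation and anticoagulant genes, 12 were higher and 8 were lower on average in males (median difference 0.10). Of all annotated genes, 58.3% were higher. None of the 20 passed either limma test. Over all probe sets 5 of them had an unadjusted p under 0.05, as did 1184 of all 6765 annotated genes. PROCR, the endothelial receptor that presents protein C to the complex of thrombin and THBD, was at 13.79, 12.93 and 12.39 in males 1 to 3 and at 11.69, 12.11 and 10.99 in females 1 to 3. Every male lay above every female, and the log2 difference of 1.44 did not pass (adjusted p = 0.0598 from limma after the CV filter, 0.173 over all probe sets). The clotting cofactor F5 had a log2 difference of 0.93 and TFPI2, an inhibitor of plasmin and other proteases, one of -0.49, both without overlap of the sexes and without passing (adjusted p = 0.183 and 0.192 from limma over all probe sets). Of the thrombin receptors, F2R had a log2 difference of 0.05 and F2RL2 one of -0.65, and neither passed. The protease-activated receptor F2RL1 has no probe set in the annotation, but the study's list of called probe sets names one for it. It was at 8.09, 7.01 and 5.86 in males 1 to 3 and at 4.68, 5.74 and 4.22 in females 1 to 3, without overlap, and limma called it with the CV filter (log2 difference 2.11, adjusted p = 0.0467) but not over all probe sets (0.176). That list was chosen on these arrays, so its call is not independent evidence.

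**Figure D4:**
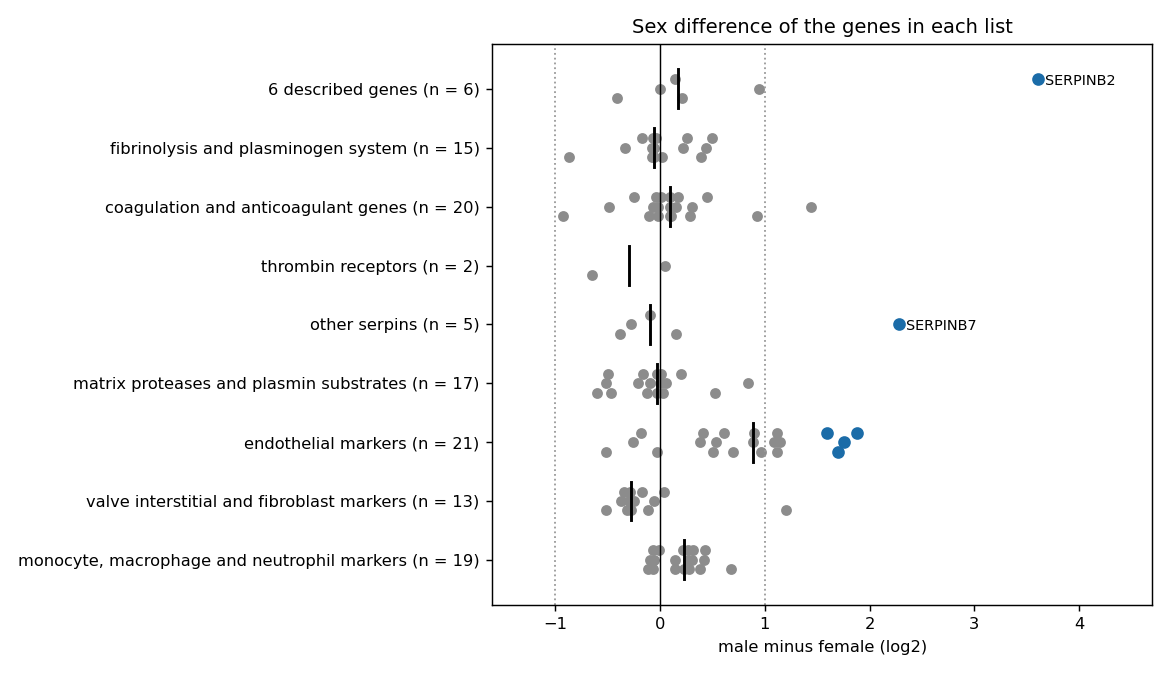
Male minus female (log2) of each measured gene, 1 annotated probe set per gene, for the 6 described genes and 8 lists; blue points were called with the CV filter, grey points were not, black bars are medians and dotted lines mark 2-fold. SERPINB2 (3.60) and SERPINB7 (2.28) lie to the right of every other gene shown, the medians of the fibrinolysis, coagulation and serpin lists lie between -0.10 and 0.10, and 4 endothelial markers are called.

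The remaining serpins other than SERPINB7 did not pass. SERPINF1, an inhibitor of angiogenesis, had a log2 difference of -0.38, and the hormone carrier SERPINA7 one of -0.28. Of 17 measured matrix proteases, their inhibitors and plasmin substrates, 6 were higher and 11 were lower on average in males (median difference -0.03). Of all annotated genes, 58.3% were higher. None of the 17 passed either test. Over all probe sets 3 of them had an unadjusted p under 0.05, as did 1184 of all 6765 annotated genes. Those 3 were THBS1 (-0.51), the growth factor TGFB1 (0.84) and TIMP2 (-0.60), with adjusted p values of 0.197, 0.204 and 0.246 from limma over all probe sets. The metalloproteases MMP1, MMP3, MMP7 and MMP13, of which plasmin can activate several precursors, lay under the 25th percentile on every array.

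Genes with the most similar pattern over the 6 arrays were sought for the members that varied most, with an SD of at least 0.5. The measure was the root mean square difference of values centred on the mean of each gene, where 0 is an identical pattern. For SERPINB2 the closest were RGS5 (0.91), the dipeptidyl peptidase DPP4 (0.92) and the neuropeptide NPY (1.06). For THBD they were GUCY1B3, a subunit of the nitric oxide receptor (0.19), the immediate early gene IER5 (0.20) and the protease inhibitor TIMP1 (0.24). TIMP1 was at 13.34, 12.97 and 12.18 in males 1 to 3 and at 11.82, 13.39 and 11.72 in females 1 to 3, so female 2 was the highest array there as well. These likenesses are descriptions over 6 arrays that all genes share.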

How the data were processed

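RNA of scraped leaflets (400 ng each) was measured on 1 Affymetrix array per pig, in 3 females and 3 castrated males. Per the labels and methods, the authors summarized each probe set with RMA under R 2.12.0, which corrects background and normalizes between arrays, and deposited the result as log2 values. They were used without further normalization. RMA can compress differences near the background. Males and females were compared with limma 3.58.1 in R 4.3.3 (lmFit and eBayes, no covariate), on the 2412 probe sets with the highest CV (10% of 24123) and on all 23999 probe sets other than 124 controls. A call needed a Benjamini-Hochberg adjusted p under 0.05 and at least 2-fold. The methods name a CV filter, but neither the share kept nor the scale, and the direction and share used here are a choice of the present processing.

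Probe sets were named from the platform annotation (1 gene for 10069 probe sets). In lists a gene is represented by its annotated probe set of highest mean. Called probe sets that the study's list names for further or the same genes are given separately. Named genes are the members, the called genes and the 3 smallest p values of each of 11 lists, and the 3 most similar patterns. VWF, KDR, VIM, PLG, SERPINB11 and the genes named as under the 25th percentile lie outside this rule and were chosen after their values were seen. The members, lists and alternatives were chosen with earlier results of these data known. Both tests were run on data simulated with independent noise, which checked the recovery and sign of known changes. That run is not a check of the p-values given here. Permutation tests used scipy 1.17.1 in Python 3.11.15. The alternatives were median centring, an intensity trend, other CV filters, no minimum fold, a filter on dim probe sets, gene means, other names, a replicate block and leaving out each array.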

Additional observations from a re-analysis of the deposited data

How the results depend on the processing

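With the CV filter, 1 of the 6 genes was called, and 0 were called when the filter kept 20% or 50% of the probe sets, where SERPINB2 stayed at 3.60. Leaving out each array gave 0 to 2 calls with the CV filter, a log2 difference of 2.27 to 4.68 for SERPINB2 and of 0.75 to 1.50 for THBD, which the filter did not keep without female replicate 3 (0.57 over all probe sets). Over all probe sets 0 of the 6 genes were called under every alternative run. The log2 difference of SERPINE2 was -0.0049 with median-centred arrays and -0.057 to 0.085 without each array, and that of PLAU was -0.13 to 0.56 without each array, so neither has a settled direction. SERPINB2, PLAT, F3 and THBD kept their direction under every alternative run. The causes of these changes were not tested. With an intensity trend the adjusted p of SERPINB2 was 1.1e-05 from limma with the CV filter and 0.188 over all probe sets. Same-numbered arrays had correlations of deviations from the mean of their sex of -0.10, 0.0097 and 0.27. Males 1 and 2 correlated best with another number, and male 3 with its own (0.27). Deviations within a sex cancel out, so these correlations depend on each other and cannot settle whether the numbers pair the arrays. With the replicate number as a block, 1 of the 6 genes was called with the CV filter (SERPINB2, log2 difference 3.60, adjusted p = 0.00697 from limma) and 0 over all probe sets, so the block changed no call.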
